A study of Caenorhabditis elegans with 24 samples.

Results

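The intestine of adult Caenorhabditis elegans that carried TIR1 alone was followed over 12 h on auxin, which is the control arm of an experiment on RNA polymerase I. The TIR1 libraries labelled 12 h and 0 h were taken, 4 of each, which is 8 of the 24 libraries in the count table. TIR1 is a plant F-box protein that marks degron-tagged proteins for destruction when auxin is present. These animals carry no degron-tagged protein. The comparison therefore reads out auxin, the ethanol in which it was dissolved, the transfer to new plates and 12 h of adult age together. These cannot be told apart.

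The 12 h animals had been on 1 mM auxin for 12 h, and the 0 h animals (0 mM auxin) were taken before the transfer. Both groups were grown from synchronized L1 larvae on OP50 bacteria at 20 °C for 72 h, to day 1 of adulthood, and both stayed fed. All carried ieSi57 on chromosome II, in which the eft-3 promoter drives TIR1 fused to mRuby with the unc-54 3′UTR and the marker Cbr-unc-119(+), and the allele unc-119(ed3) III. The eft-3 promoter is active in most somatic tissues, so TIR1 was not limited to the intestine. Replicate 1 of each group came from strain DCW143, outcrossed 1 time, and replicates 2 to 4 from DCW448, outcrossed 3 times. Each library pools dissected intestines, and the labels call the 4 replicates independent. The Pol I-AID strain, used here only for comparison, carries ieSi57 and also qzIs15 on chromosome I, which joins degron1 and GFP to the RNA polymerase I subunit RPOA-2. It had 4 libraries at 12 h on 1 mM auxin and 4 at 0 h, from DCW180 in replicate 1 and DCW447 in replicates 2 to 4.

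The worm intestine is a single layer of large cells that digests bacteria, stores fat and makes yolk. It is also the main site of detoxification and of defence against swallowed microbes. Foreign compounds are handled in steps there. Cytochrome P450 enzymes and short-chain dehydrogenases modify the molecule, UDP-glucuronosyltransferases (UGTs) and glutathione S-transferases (GSTs) couple it to a sugar or to glutathione, and ABC transporters carry the product out. During early adulthood the intestine exports vitellogenins, the yolk proteins, to the growing oocytes.

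Total counts, in units of M (1000000 counts), were 20.7, 22.2, 26.2 and 21.6 M in 12 h replicates 1 to 4, against 18.2, 21.1, 3.18 and 21.1 M in 0 h replicates 1 to 4, so 0 h replicate 3 is the shallow library. The intestinal markers elt-2, ges-1, ifb-2 and others (12 in all, every one tested) were summed in ppm (counts per 1000000 counts outside the vitellogenin genes). The sums were 17032, 18297, 18959 and 27991 ppm in 12 h replicates 1 to 4, against 22779 to 31201 at 0 h. 12 h replicates 1 to 3 were thus below every 0 h library, and the library labelled replicate 4 was inside the 0 h range. The difference between the groups did not pass the two-sided exact permutation test (p = 0.0571 for 4 against 4 libraries, where the smallest possible is 0.0286). Without the library labelled TIR1 12 h replicate 4, the two-sided exact permutation test also gave p = 0.0571. The most abundant of the 12 was cpr-1, a cathepsin gene, and a sum follows its most abundant members. None of the 12 was called as changed by the gene tests given below. Their median log2 fold change was -0.31 (-0.39 without that library). The 10 body wall muscle markers summed to 219 ppm in 0 h replicate 1, against 10.06 to 16.52 in the other 0 h libraries and 7.40 to 13.3 at 12 h. The cuticle collagen (col) genes summed to 97.7 to 167 ppm at 12 h, against 3635 in 0 h replicate 1, 1473 in 0 h replicate 4 and 177 to 194 in the remaining 0 h libraries. Fewer cells of a type and less RNA per cell cannot be told apart in such bulk samples.

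The library labelled TIR1 12 h replicate 4 stood apart from the other 12 h libraries. Over log2 CPM (counts per 1000000 counts) of all genes tested, its mean Pearson correlation was 0.938 with the other 12 h libraries and 0.947 with the 0 h libraries. For 12 h replicates 1 to 3 the same means were 0.947 to 0.953 with the other 12 h libraries and 0.912 to 0.917 with the 0 h libraries. Its single highest correlations were with TIR1 0 h replicate 2 (0.963) and replicate 4 (0.956). These correlations are across genes, which are not independent replicates, and are given as a description.

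A second reading used genes chosen in other libraries. In Pol I-AID, 394 genes (5.71% of 6903 tested) were higher at 12 h than at 0 h. The median log2 ratio of these genes to the Pol I-AID 0 h level was 0.75, 0.56, 0.69 and 0.12 in TIR1 12 h replicates 1 to 4, against 0.30, -0.04, -0.03 and 0.00 in TIR1 0 h replicates 1 to 4. For the 167 genes (2.42%) that were lower in Pol I-AID, it was -0.82, -0.83, -0.82 and -0.25 at TIR1 12 h, against -0.33, -0.04, -0.32 and -0.19 at TIR1 0 h. The library labelled TIR1 12 h replicate 4 thus lay within the range of the 0 h libraries in both sets, and the other 12 h libraries lay outside it. It was closer to the TIR1 0 h mean than to the mean of the other 12 h libraries in 304 of the 394 genes (77.2%) and 134 of the 167 (80.2%), and in 61.8% of all genes tested. Counts of calls and the changes of named genes below are therefore given with and without it, except where a sentence says otherwise. Whether this library is an exchanged or untreated sample was not tested, and every change computed over all 4 libraries at 12 h assumes that its label is right.

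**Figure D1:**
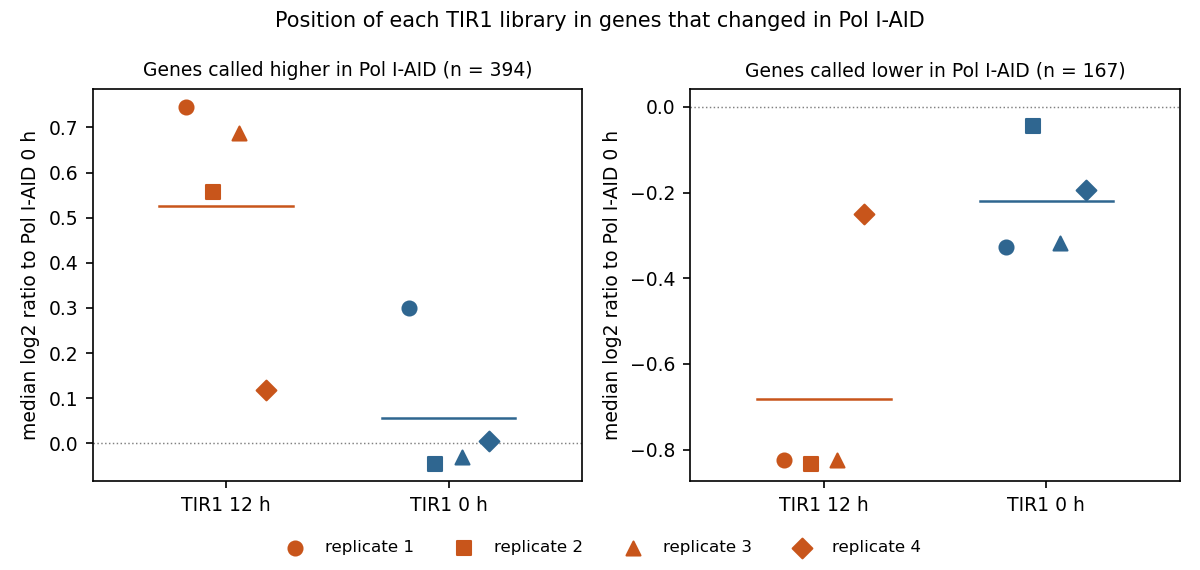
Median log2 ratio to the mean Pol I-AID 0 h level over the genes called higher (left, 394 genes) and lower (right, 167 genes) in Pol I-AID at 12 h, for each TIR1 library, 12 h in orange and 0 h in blue, with the group mean as a line and a marker shape per replicate. The diamond at 12 h, the library labelled replicate 4, sits at 0.12 and -0.25, among the 0 h libraries.

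Between 12 h and 0 h, 143 genes rose (2.07% of 6903 tested) and 35 fell (0.507%) at an edgeR FDR under 0.05 and at least 2-fold. Without the library labelled TIR1 12 h replicate 4, 244 rose (3.43% of 7105 tested) and 114 fell (1.6%). All 143 rises and 34 of the 35 falls were called in both fits. The fall that was lost is let-2, a basement membrane collagen named here after its values were seen, at -4.63 ± 1.36 (SE, edgeR FDR 0.0488) with the library and -4.40 ± 1.53 (SE, edgeR FDR 0.078) without it. Every 12 h library was above every 0 h library in 48 of the 143 genes, against 3.04% of all genes tested, and in 137 of them when that library was left out, against 10.1% of all genes. The 35 falls had 12 genes with every 12 h library lower (2.17% of all genes), and 19 without that library (7.87%). The genes were called from these same libraries, so these counts are a description.

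The number of calls also changed when other libraries were left out. Leaving out 12 h replicate 1 gave 95 rises and 20 falls, leaving out 12 h replicate 3 gave 93 and 21, and leaving out 0 h replicate 1 gave 145 and 17. A fit of the 2 TIR1 groups alone called 0 genes in either direction with edgeR, with 491 higher and 314 lower at an unadjusted p under 0.05 and 111 higher and 26 lower by DESeq2. With the library labelled TIR1 12 h replicate 4 left out of that fit, edgeR called 208 rises and 109 falls, which include 131 of the 143 and 27 of the 35.

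The 12 rises named here had the largest log2 fold change among those called that averaged at least 10 CPM over the 8 libraries and were higher at 12 h in all 4 same-numbered comparisons. They were fmo-2, drd-50, cth-1, gst-5, clec-210, got-2.2, gba-2, ugt-53, gst-4, dhs-2, gst-10 and asns-2. All 12 were called with and without the library labelled TIR1 12 h replicate 4, and in all 12 the other 12 h libraries lay above every 0 h library.

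fmo-2, a flavin-containing monooxygenase, was almost absent before auxin, at 62.6, 17.9, 60.5 and 1.49 CPM in 12 h replicates 1 to 4, against 0, 0.0427, 0.965 and 0 CPM in 0 h replicates 1 to 4. Every 12 h library was higher than every 0 h library, and the library labelled replicate 4 was the lowest at 12 h. The log2 fold change was 8.82 ± 0.999 (SE, edgeR FDR 1.58e-05), and 9.23 ± 0.64 (SE, edgeR FDR 4.70e-10) without that library.

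drd-50 had 53.3, 81.6, 91.1 and 6.38 CPM in 12 h replicates 1 to 4, against 5.50, 1.62, 2.89 and 2.001 CPM in 0 h replicates 1 to 4. All 12 h libraries were higher than all 0 h libraries, with the library labelled replicate 4 close above them. Its log2 fold change was 4.27 ± 0.49 (SE, edgeR FDR 1.58e-05), and 4.65 ± 0.28 (SE, edgeR FDR 3.15e-11) without it. At 24 h on auxin fmo-2 averaged 97.3 ± 28.6 CPM and drd-50 161 ± 8.95 CPM in TIR1 animals (SD, n = 4).

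cth-1 encodes cystathionine gamma-lyase, which makes cysteine, and was the most abundant of the strong rises, at 623, 357, 459 and 28.8 CPM in 12 h replicates 1 to 4, against 37.1, 21.98, 19.3 and 17.9 CPM in 0 h replicates 1 to 4. Replicates 1 to 3 at 12 h were far above the 0 h range, whereas the library labelled replicate 4 lay inside it. The change was 3.92 ± 0.50 (SE, edgeR FDR 8.60e-05) on the log2 scale, and 4.31 ± 0.27 (SE, edgeR FDR 7.82e-11) without that library. got-2.2, a mitochondrial aspartate aminotransferase, showed the same order, with 93.2, 83.3, 94.3 and 12.35 CPM in 12 h replicates 1 to 4, against 12.9, 10.6, 13.3 and 11.1 CPM in 0 h replicates 1 to 4. Its 12 h replicates 1 to 3 varied little and the library labelled replicate 4 was inside the 0 h range. This gave a log2 fold change of 2.57 (edgeR FDR 1.06e-04) and of 2.92 (FDR 1.36e-12) without it.

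asns-2, an asparagine synthetase, had 547, 217, 312 and 78.3 CPM in 12 h replicates 1 to 4, against 185, 36.2, 68.2 and 59.8 CPM in 0 h replicates 1 to 4. The 0 h range was wide because replicate 1 was high, and the library labelled TIR1 12 h replicate 4 lay within it. Its change of 1.72 ± 0.43 (SE, edgeR FDR 0.0167) on the log2 scale lost its call without 12 h replicate 1 or without any 1 of 0 h replicates 2 to 4, and was 2.04 ± 0.38 (SE, edgeR FDR 6.10e-04) without the library labelled TIR1 12 h replicate 4.

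Of the GSTs, gst-5 had 8.73, 63.0, 40.4 and 4.85 CPM in 12 h replicates 1 to 4, against 3.78, 3.76, 3.38 and 1.68 CPM in 0 h replicates 1 to 4. All 12 h libraries were above all 0 h libraries, with a wide spread at 12 h. Its log2 fold change was 3.23 ± 0.60 (SE, edgeR FDR 0.00193), and 3.59 ± 0.53 (SE, edgeR FDR 4.31e-05) without the library labelled TIR1 12 h replicate 4. gst-4, a known target of the stress factor SKN-1, had 30.5, 59.3, 62.4 and 12.58 CPM at 12 h, against 16.7, 5.25, 11.3 and 5.40 CPM at 0 h, and gst-10 had 23.5, 41.03, 46.6 and 14.7 CPM at 12 h, against 16.46, 6.36, 10.1 and 4.96 CPM at 0 h. In both genes that library lay inside the 0 h range, whose upper end was 0 h replicate 1. The log2 fold change of gst-4 was 2.11 ± 0.41 (SE, edgeR FDR 0.00283), and 2.41 ± 0.36 (FDR 5.52e-05) without that library. That of gst-10 was 1.74 ± 0.35 (SE, edgeR FDR 0.0033), and 1.98 ± 0.33 (FDR 2.12e-04) without that library.

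ugt-53 had 48.7, 42.1, 48.4 and 12.95 CPM at 12 h, against 11.3, 5.76, 9.65 and 6.72 CPM at 0 h. All 12 h libraries were higher than all 0 h libraries, with the library labelled TIR1 12 h replicate 4 the lowest at 12 h. The log2 fold change was 2.201 ± 0.31 (SE, edgeR FDR 1.81e-04), and 2.49 ± 0.24 (FDR 9.80e-08) without that library. dhs-2, a short-chain dehydrogenase, had 30.2, 25.4, 32.7 and 8.36 CPM at 12 h, against 5.50, 7.26, 8.44 and 6.36 CPM at 0 h. The library labelled TIR1 12 h replicate 4 lay inside the 0 h range, and the log2 fold change was 1.83 ± 0.27 (SE, edgeR FDR 2.41e-04), and 2.12 ± 0.17 (FDR 8.83e-09) without that library. gba-2, a glucocerebrosidase that degrades glucosylceramide, had 14.5, 31.5, 39.5 and 4.48 CPM at 12 h, against 5.64, 5.59, 2.41 and 2.84 CPM at 0 h, with the same overlap, and changed on the log2 scale by 2.39 ± 0.48 (SE, edgeR FDR 0.00371), and 2.72 ± 0.41 (FDR 5.38e-05) without that library. clec-210, a C-type lectin, had 44.7, 35.9, 62.2 and 6.61 CPM at 12 h, against 4.45, 5.12, 7.72 and 5.32 CPM at 0 h. That library again lay inside the 0 h range, and the log2 fold change was 2.77 ± 0.43 (SE, edgeR FDR 5.14e-04), and 3.12 ± 0.30 (FDR 9.80e-08) without that library.

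**Figure D2:**
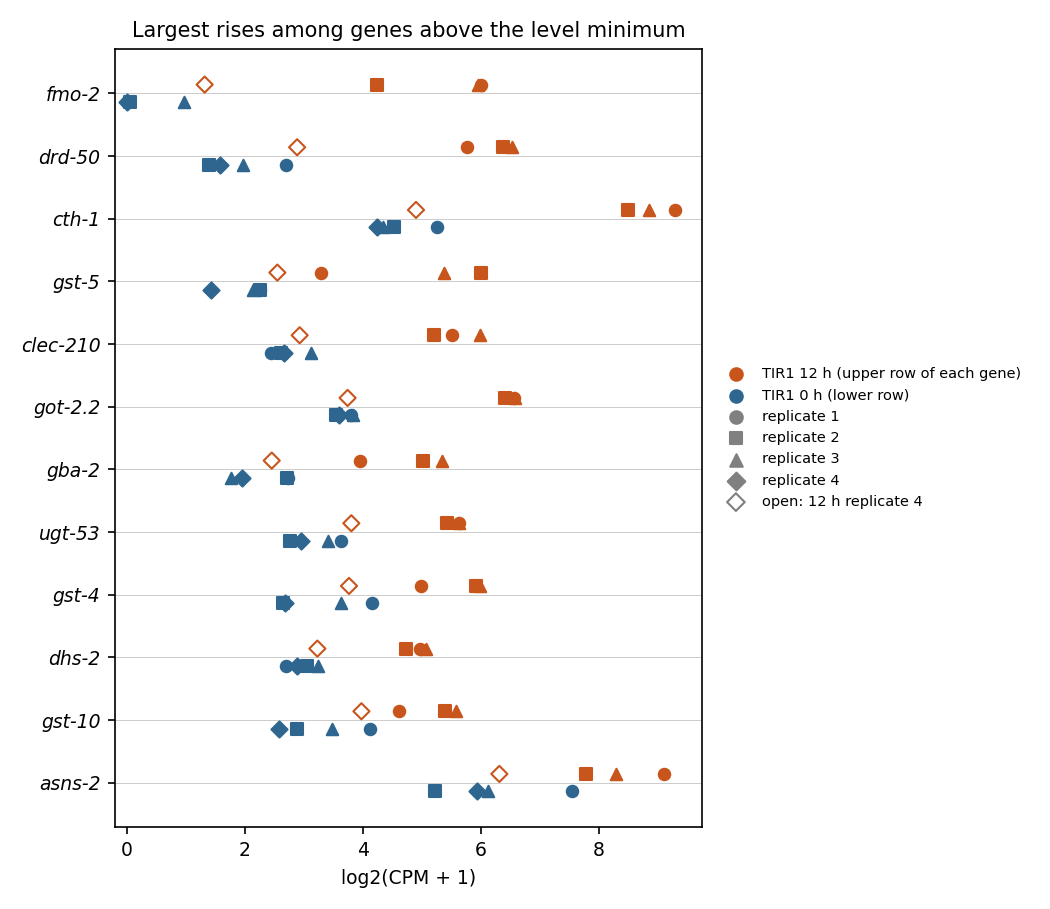
CPM of the 12 largest rises among called genes averaging at least 10 CPM with the same direction in all 4 same-numbered comparisons, on a log2(CPM + 1) axis in each TIR1 library, 12 h in orange above 0 h in blue for each gene, with a marker shape per replicate. The open diamond, the library labelled TIR1 12 h replicate 4, lies near the 0 h points, as in cth-1 at 28.8 CPM, while the other 12 h libraries lie above every 0 h library.

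The gene families of detoxification held many of the rises. Over the P450, UGT, GST, short-chain dehydrogenase and carboxylesterase lists, 31 of 167 members tested rose (18.6%, against 2.07% of all genes) and 0 fell by edgeR, with 77 higher and 5 lower at an unadjusted p under 0.05 and 31 higher and 0 lower by DESeq2. Leaving out the library labelled TIR1 12 h replicate 4, 45 rose (26.9%, against 3.43%) and 1 fell. The median log2 fold change of the 167 members was 0.50 (0.59 without it), against 0.01 over all genes tested (-0.01 without it). No list was tested as a set, and the lists were chosen with results of these data known.

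Of 51 P450 genes 8 rose, and without that library 13 did. Their largest log2 fold changes, each followed in parentheses by the value without it, were cyp-35A1 3.99 (4.41), cyp-34A10 3.60 (3.87), cyp-13B1 3.52 (3.86) and cyp-29A3 2.51 (2.78). All of these were low in level, under 6 CPM in every 12 h and 0 h library. cyp-13B1 had 5.27, 2.90, 3.81 and 0.746 CPM at 12 h, against 0.383, 0.171, 0.482 and 0.200 CPM at 0 h, with no overlap between the groups. Of 45 UGT genes, which attach glucuronic acid or another sugar, 9 rose, led by ugt-41 2.86 (3.23), ugt-37 2.49 (2.85) and ugt-52 2.24 (2.63) beside ugt-53. With 12 h replicates 1 to 3 alone, 16 rose and ugt-15, named after its values were seen, fell (-1.86 ± 0.47 (SE, edgeR FDR 0.0107), against -1.02 ± 0.49 (SE, edgeR FDR 0.325) with it).

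Of 24 GST genes, 8 rose and 9 did without that library. Beside gst-5 they were led by gst-24 3.27 (3.66), gst-20 3.13 (3.50) and gst-19 2.84 (3.22). In gst-24 a single library, 12 h replicate 2, held 5.88 CPM, against 0.224 to 0.988 CPM in the other 12 h libraries. Among 22 short-chain dehydrogenases, dhs-20 2.21 (2.50), dhs-19 2.01 (2.29) and dhs-2 rose. Of 25 carboxylesterases, 3 rose, namely cest-7 1.29 (1.53), cest-10 1.26 (1.41) and cest-12 1.008 (1.23). Of 34 ABC transporters only pgp-1, a P-glycoprotein that exports foreign compounds, rose in either fit. That is 2.94% in both fits, close to the 2.07% and 3.43% of all genes. pgp-1 had 23.98, 37.6, 29.2 and 6.12 CPM at 12 h, against 7.22, 6.49, 2.89 and 7.28 CPM at 0 h. Its log2 change was 1.95 ± 0.34 (SE, edgeR FDR 0.00128), or 2.27 ± 0.24 (SE, edgeR FDR 5.30e-07) without the library labelled TIR1 12 h replicate 4. skn-1, the transcription factor that switches on many detoxification genes, was the 1 rise among 28 intestinal and stress transcription factors. That is 3.57% in both fits, against 2.07% and 3.43% of all genes. skn-1 had 67.4, 33.7, 39.4 and 18.9 CPM at 12 h, against 15.9, 17.7, 20.98 and 17.2 CPM at 0 h. Its 12 h replicates 1 to 3 were above the 0 h range and the library labelled replicate 4 was inside it. The change of 1.16 ± 0.24 (SE, edgeR FDR 0.00404), or 1.39 ± 0.19 (SE, edgeR FDR 2.13e-05) without that library, lost its call without 12 h replicate 1. Among 14 redox enzymes the catalase ctl-1 rose, at 1.08 (1.23), which is 7.14% in both fits.

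Fat and sulphur metabolism followed. Of 39 genes of fatty acid oxidation 6 rose (15.4%, against 2.07% of all genes), with a median log2 fold change of 0.51, and 9 rose without the library labelled TIR1 12 h replicate 4 (23.1%, against 3.43%). Without replicate 1 in every group 1 of them was called. They were led by the carnitine palmitoyltransferases cpt-3 2.16 (2.50) and cpt-4 1.40 (1.62), which carry fatty acids into mitochondria, the acyl-CoA dehydrogenase acdh-2 2.10 (2.45) and the acyl-CoA oxidase acox-3 1.39 (1.64) of peroxisomes. Of 20 genes of fatty acid synthesis, elongation and desaturation none was called by edgeR in either fit, and with all libraries 4 were higher at an unadjusted p under 0.05 and none was called by DESeq2. Their most abundant member, acs-1, had a log2 fold change of 0.01 (0.01 without that library). Among 10 lipase and lipid-droplet genes, lipl-5 and lipl-2 1.31 (1.56) rose, which is 20% in both fits. The lipase lipl-5 had 2937, 2684, 2242 and 489.7 CPM in 12 h replicates 1 to 4, against 544, 414, 364 and 1300.0 CPM in 0 h replicates 1 to 4. 12 h replicates 1 to 3 were above the 0 h range, and 0 h replicate 4 was above the other 0 h libraries. Its change of 1.67 ± 0.42 (SE, edgeR FDR 0.0195) was lost without any 1 of 0 h replicates 1 to 3 or 12 h replicates 1 to 3, and was 1.999 ± 0.35 (SE, edgeR FDR 3.74e-04) without the library labelled TIR1 12 h replicate 4.

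In the one-carbon and sulphur list, 3 of 18 members rose (16.7%, against 2.07% of all genes). The count was 4 (22.2%, against 3.43%) without the library labelled TIR1 12 h replicate 4, and 1 without replicate 1 in every group. Beside cth-1 the 3 were cbs-1 2.06 (2.304), a cystathionine beta-synthase that acts just before it, and sams-4 1.52 (1.37), an S-adenosylmethionine synthetase. sams-4 has a close copy in the genome and its count is uncertain for that reason, as are those of other families with near-identical members (vit-3 to vit-5, the actins, and some collagens and C-type lectins), since only reads with a single alignment were kept. Of 15 genes of iron, heme and metal handling, cdr-1 1.52 (1.76) and the zinc transporter cdf-2 1.03 (1.24) rose, which is 13.3%, against 2.07% of all genes. Without the library labelled TIR1 12 h replicate 4 the metallothioneins mtl-1 and mtl-2, named after their values were seen, were called as well. The share was then 26.7%, against 3.43%. mtl-2 had 25.3, 27.7, 19.97 and 3.99 CPM at 12 h, against 4.78, 6.15, 3.86 and 2.48 CPM at 0 h, which gives 2.48 ± 0.61 (SE, edgeR FDR 0.00852) without that library and 2.14 ± 0.63 (SE, edgeR FDR 0.0515) with it. mtl-1 had 4, 10, 8 and 0 counts at 12 h and 0 counts in each 0 h library. Its 12 h level without the library labelled replicate 4 was 7.88 times a floor of 3 counts over the 0 h group. That value is not a lower bound, since counts overstate the number of molecules.

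Defence genes were called in small numbers. Of 67 C-type lectins, which bind sugars and include many secreted intestinal defence proteins, 3 rose and 1 fell (4.48% and 1.49%, against 2.07% and 0.507% of all genes). Without the library labelled TIR1 12 h replicate 4, 5 rose (with clec-165 and clec-22) and 4 fell (with clec-70, clec-7 and clec-52), which is 7.46% and 5.97%, against 3.43% and 1.6%. The abundant clec-50 had 1145, 1364, 1129 and 187 CPM in 12 h replicates 1 to 4, against 217, 178, 149 and 376 CPM in 0 h replicates 1 to 4. 12 h replicates 1 to 3 were above the 0 h range and the library labelled replicate 4 was inside it. Its log2 fold change was 2.05 ± 0.37 (SE, edgeR FDR 0.00166), and 2.39 ± 0.25 (FDR 4.68e-07) without that library. clec-49 rose as well, by 1.86 ± 0.33 (SE, edgeR FDR 0.00128), and 2.19 ± 0.21 (FDR 9.80e-08) without that library. clec-5 fell, with 105, 71.2, 154 and 356 CPM at 12 h, against 311, 411, 331 and 328 CPM at 0 h. Its change of -1.01 ± 0.29 (SE, edgeR FDR 0.0455) was just past 2-fold and lost its call whenever any 1 of the other 7 libraries was left out, but was -1.65 ± 0.21 (SE, edgeR FDR 5.24e-06) without the library labelled TIR1 12 h replicate 4. Of 10 other immune effectors the infection response genes irg-6 3.05 (3.41) and irg-4 1.63 (1.91) rose. That is 20% of a short list in both fits, against 2.07% and 3.43% of all genes.

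Of 13 lysozymes, 11 aspartic proteases and 10 cathepsins none was called by edgeR or DESeq2 with all libraries, with 5 higher and 12 lower at an unadjusted p under 0.05. With 12 h replicates 1 to 3 alone, lys-6 and lys-5 fell. Both were named after their values were seen. lys-6 had 13.4, 24.2, 22.9 and 79.7 CPM in 12 h replicates 1 to 4, against 68.1, 80.9, 73.1 and 59.7 CPM in 0 h replicates 1 to 4, so that 12 h replicates 1 to 3 were below every 0 h library and the library labelled replicate 4 was not. On the log2 scale the change was -1.004 ± 0.40 (SE, edgeR FDR 0.192) with it and -1.80 ± 0.34 (SE, edgeR FDR 8.23e-04) without it. For lys-5 it was -0.82 ± 0.43 (SE, edgeR FDR 0.39) and -1.41 ± 0.43 (SE, edgeR FDR 0.0385).

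Digestive proteases showed the same dependence. A single aspartic protease and a single cathepsin fell without the library labelled TIR1 12 h replicate 4. The cathepsin B gene cpr-4, named after its values were seen, had 3284, 2545, 3064 and 6264 CPM in 12 h replicates 1 to 4, against 6313, 7449.9, 6021 and 7337 CPM in 0 h replicates 1 to 4. Replicates 1 to 3 at 12 h were below the whole 0 h range and the library labelled replicate 4 was close to its lower end. The change was -0.84 ± 0.18 (SE, edgeR FDR 0.00694) with it, under 2-fold, and -1.196 ± 0.13 (SE, edgeR FDR 5.30e-07) without it. The aspartic protease asp-8, also named after its values were seen, had 4.88, 15, 13.5 and 68.8 CPM at 12 h, against 33.2, 69.1, 65.8 and 70.8 CPM at 0 h. Its change was -1.22 ± 0.55 (SE, edgeR FDR 0.275) with the library and -2.42 ± 0.49 (SE, edgeR FDR 0.00142) without it. The most abundant members, asp-3 (-0.27, or -0.30 without the library) and cpr-9 (-0.06, or -0.09), were not called in either fit.

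Of 134 nuclear hormone receptors, 3 rose and 1 fell (2.24% and 0.746%), close to the 2.07% and 0.507% of all genes, and without the library labelled TIR1 12 h replicate 4, 5 rose and 2 fell (3.73% and 1.49%, against 3.43% and 1.6%). These ligand-regulated transcription factors are a large family in worms. They were nhr-11 2.98 (3.28), nhr-202 1.40 (1.52) and nhr-58 1.14 (1.417) among the rises, and nhr-99 -1.23 (-1.68), which fell. Of 43 V-ATPase and lysosome genes, gba-2 and the transporter slc-17.6 1.004 (1.198) rose, with gba-4 as well (1.84 ± 0.46 (SE, edgeR FDR 0.00864)) only without the library labelled TIR1 12 h replicate 4. That is 4.65%, and 6.98% without that library, against 2.07% and 3.43% of all genes. Of 9 histones the linker histone his-24 1.23 (1.49) rose, which is 11.1% in both fits.

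**Figure D3:**
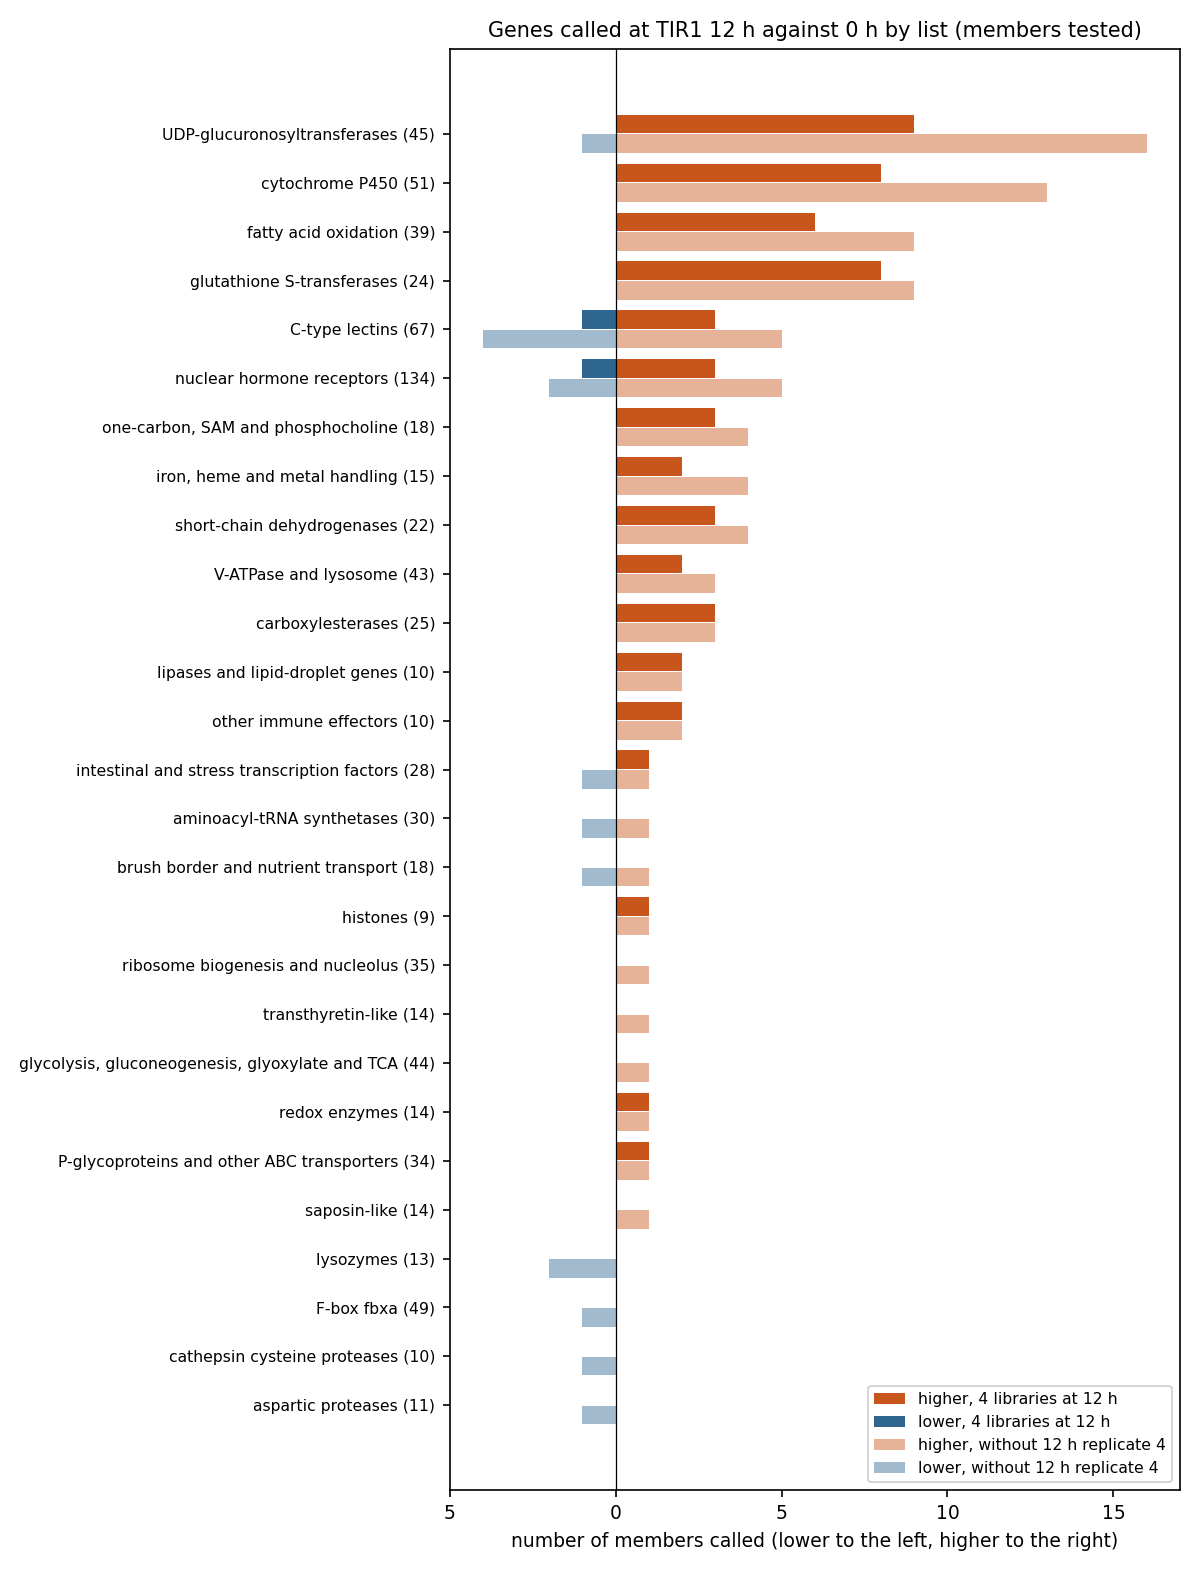
Number of members called per gene list at TIR1 12 h against 0 h, higher in orange to the right and lower in blue to the left, with dark bars for all 4 libraries at 12 h and pale bars without the library labelled replicate 4; the number tested is in parentheses. The UGT (9 and 16 higher), P450 (8 and 13), fatty acid oxidation (6 and 9) and GST (8 and 9) lists hold the longest bars.

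The vitellogenins were a large share of every library. Together vit-1 to vit-6 took 76.5, 71.4, 74.1 and 67.6% of all counts in 12 h replicates 1 to 4, against 69.4, 68.8, 67.6 and 67.8% in 0 h replicates 1 to 4. Replicates 1 to 3 at 12 h were above the 0 h range and the library labelled replicate 4 was at its lower end. The mean difference of 3.98 percentage points had p = 0.114 in the two-sided exact permutation test. Without that library it was 5.58 points, with p = 0.0286 in the exact test, the smallest that 3 against 4 libraries allow, and 0.314 after adjustment over 11 library measures. None of the 11 measures passed after adjustment with or without that library, which says little about any of them. With 0.0286 as the smallest p in both cases, a measure can pass only if most of the 11 reach it together. None of the 6 genes was called by edgeR in either fit or by DESeq2, and 4 were higher at an unadjusted p under 0.05 with all libraries. Their log2 fold changes, with the value without that library in parentheses, were vit-5 0.41 (0.54), vit-4 0.38 (0.50), vit-2 0.25 (0.34), vit-6 0.25 (0.34), vit-1 0.24 (0.35) and vit-3 -0.01 (0.02). At 0.54 ± 0.09 (SE, edgeR FDR 1.54e-04) without the library labelled replicate 4, vit-5 had an FDR under the threshold and a change under 2-fold.

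Stress, ribosome and signalling lists held no call. With the library labelled TIR1 12 h replicate 4 and without it, 0 members were called by edgeR among 11 cytosolic heat shock genes, 19 ER chaperone and unfolded protein response genes, 10 mitochondrial chaperones, 36 respiratory chain genes, 48 mitochondrial ribosomal proteins, 41 translation factors, 33 proteasome subunits and 23 genes of mTOR, AMPK and insulin signalling. The 78 cytosolic ribosomal protein genes, which supply the protein part of ribosomes, also had 0 calls, with a median log2 fold change of 0.28 (0.39 without that library), above the 0.01 of all genes. Their most abundant member rpl-12 had 304, 841, 453 and 508 CPM at 12 h, against 563, 524, 489 and 360.0 CPM at 0 h, which overlap. The log2 fold changes of the most abundant members of the other lists, with the value without that library in parentheses, were hsp-1 -0.03 (-0.19), xbp-1 -0.49 (-0.62), atfs-1 -0.30 (-0.41), atp-1 -0.18 (-0.19), mrpl-44 -0.24 (-0.23), eef-2 0.03 (0.06), rpn-13 0.21 (0.26) and sgk-1 0.24 (0.34). Over these 299 genes, 0 were higher and 10 lower at an unadjusted p under 0.05, and DESeq2 called 0. A change missing the threshold does not show that these genes were the same at both times.

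The lists not yet described held few calls. In 14 dod and dct genes, 9 lipid-binding and lipoprotein genes and 9 acid phosphatases none was called in either edgeR fit, with 5 higher and 0 lower at an unadjusted p under 0.05 over all libraries and 2 (lbp-5 and lbp-7, lipid-binding proteins) called higher by DESeq2. The log2 fold changes of their most abundant members, with the value without the library labelled TIR1 12 h replicate 4 in parentheses, were dod-19 0.80 (0.98), dsc-4 0.01 (0.01) and pho-9 -0.11 (-0.04). With all libraries edgeR also called none among 14 saposin-like, 14 transthyretin-like, 44 central carbon metabolism, 35 ribosome biogenesis, 18 brush border and 49 fbxa genes. Of these 174, 19 were higher and 13 lower at an unadjusted p under 0.05, and DESeq2 called spp-17 and gsy-1 higher and hmit-1.1 lower. The most abundant members were at spp-2 -0.72 (-1.21), ttr-49 0.26 (0.23), pck-2 0.47 (0.58), ncl-1 0.03 (0.15) and pept-1 -0.40 (-0.54). Without the library labelled TIR1 12 h replicate 4, the members then called, and named after their values were seen, were spp-17 (1.98), ttr-44 (1.24), the glycogen synthase gsy-1 (1.14), tif-1A (1.07), a factor for RNA polymerase I transcription, and the inositol transporter hmit-1.3 (1.06) as rises, and hmit-1.1 (-1.70) and fbxa-61 (-1.87) as falls. In the list of intestinal and stress transcription factors, which holds skn-1, crh-1 also fell without that library (-1.01, named after its values were seen). Of the marker lists for other tissues, the muscle and cuticle markers are described with the falls. None of 8 germline, 2 pharynx, 3 neuron and 1 coelomocyte markers tested was called by edgeR in either fit, with perm-4 at -0.43 (-0.09), phat-3 at 1.58 (1.82), egl-21 at -0.28 (-0.20) and cup-4 at 0.05 (0.21), and of 2 sperm genes (ssp-10 at 1.26, or 1.44 without the library) msp-31 was called only without that library (2.75).

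Of the 35 falls, 16 were cuticle collagens (col genes, 29 tested). In 15 of these 0 h replicates 1 and 4, the libraries with the high collagen sums given above, were both above 0 h replicates 2 and 3, and in 7 of the 16 all of 12 h replicates 1 to 3 were below every 0 h library. That was also so in 12 of the 19 other falls, and not in unc-54, unc-15, act-4, let-2, osm-11, F45D3.4 and T06C12.14, named for this after their values were seen. Over all genes tested it was so in 7.87%. The falls were called from these same libraries, so these counts are a description. Without replicate 1 in every group edgeR called 0 falls, with 320 lower at an unadjusted p under 0.05 and 12 called lower by DESeq2. By the rule used for the rises, 9 falls are named, namely Y39B6A.1, pgph-3, unc-54, col-101, col-80, col-140, col-124, col-184 and col-20.

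Y39B6A.1 had 349, 270.0, 287 and 844 CPM in 12 h replicates 1 to 4, against 672, 1173, 837 and 1187 CPM in 0 h replicates 1 to 4. 12 h replicates 1 to 3 were below every 0 h library, and the library labelled replicate 4 was within the 0 h range. Its log2 fold change was -1.15 ± 0.28 (SE, edgeR FDR 0.0147), and -1.68 ± 0.22 (SE, edgeR FDR 9.97e-06) without that library. pgph-3, which resembles phosphoglycolate phosphatases, had 35.1, 24.9, 26.9 and 96.8 CPM in 12 h replicates 1 to 4, against 103.6, 129, 98.1 and 105 CPM in 0 h replicates 1 to 4. Every 12 h library was below every 0 h library, with that labelled replicate 4 just below them. pgph-3 thus changed by -1.25 ± 0.30 (SE, edgeR FDR 0.0135), and -1.92 ± 0.21 (SE, edgeR FDR 1.07e-06) without it.

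Of the collagens, which are secreted by the hypodermis to build the cuticle, col-140 had 1.87, 3.32, 4.23 and 6.20 CPM in 12 h replicates 1 to 4, against 169, 7.0, 6.27 and 70.2 CPM in 0 h replicates 1 to 4. Replicates 1 and 4 at 0 h were more than 10 times the remaining 0 h libraries, which were close to the 12 h range. col-140 changed by -4.02 ± 0.77 (SE, edgeR FDR 0.0024) on the log2 scale over all libraries, and by -4.33 ± 0.89 (SE, edgeR FDR 0.00164) without the library labelled TIR1 12 h replicate 4. In col-20, col-184, col-124, col-80 and col-101 the values were 0.497 to 5.64 CPM at 12 h, against 20.7 to 103 CPM in 0 h replicates 1 and 4 and 1.92 to 6.45 CPM in 0 h replicates 2 and 3. Their log2 fold changes, with the value without that library in parentheses, were col-20 -4.68 (-5.48), col-184 -4.61 (-4.91), col-124 -4.14 (-5.28), col-80 -3.81 (-4.16) and col-101 -3.27 (-3.38). The adult cuticle collagen col-19, the 1 hypodermis and cuticle marker of 11 that was tested, fell by the same measure, at -3.02 ± 0.77 (SE, edgeR FDR 0.0201), and -3.49 ± 0.89 (FDR 0.0112) without that library.

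Muscle genes rested on 0 h replicate 1. unc-54, a myosin heavy chain of body wall muscle, had 10.3, 9.20, 11.1 and 10.8 CPM at 12 h, against 103, 9.77, 11.3 and 12.9 CPM at 0 h, and only 0 h replicate 1 differed from the rest. Its 3′ end is also part of the TIR1 transgene. The log2 fold change of -1.75 ± 0.47 (SE, edgeR FDR 0.0296), or -1.77 ± 0.53 (SE, edgeR FDR 0.035) without the library labelled TIR1 12 h replicate 4, was -0.13 (FDR 0.845) without 0 h replicate 1. The paramyosin gene unc-15, the 1 called of 5 muscle markers tested, had 0.110, 0, 0 and 0.112 CPM at 12 h, against 42.5, 0.512, 0 and 0.961 CPM at 0 h. Its change of -7.58 ± 1.62 (SE, edgeR FDR 0.00573), or -8.29 ± 2.01 (SE, edgeR FDR 0.00767) without that 12 h library, was -3.32 (FDR 0.231) without 0 h replicate 1. The actin act-4, named after its values were seen, had 1.098, 0.663, 0.346 and 2.05 CPM at 12 h, against 84.8, 1.28, 0 and 3.68 CPM at 0 h and the same high library, with a log2 fold change of -4.45 (-5.06) with (without) that 12 h library.

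With 0 h replicates 1 and 4 and the library labelled TIR1 12 h replicate 4 all left out, 225 genes rose (3.02% of 7455 tested) and 66 fell (0.885%). These include 120 of the 143 rises and 9 of the 35 falls, and 0 of the falls were col genes, whose median log2 fold change was -0.84 in that fit, against -3.27 with all libraries. The 9 falls still called were clec-5, Y39B6A.1, nkb-3, nhr-99, pgph-3, vnut-1, Y43F8B.2, T06C12.14 and epic-2. With 0 h replicates 1 and 4 left out and the library labelled TIR1 12 h replicate 4 kept, 90 rose and 0 fell by edgeR (653 and 254 at an unadjusted p under 0.05, and 139 and 11 by DESeq2). What part tissue carried along with the intestine had in the collagen and muscle falls was not tested beyond these values.

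**Figure D4:**
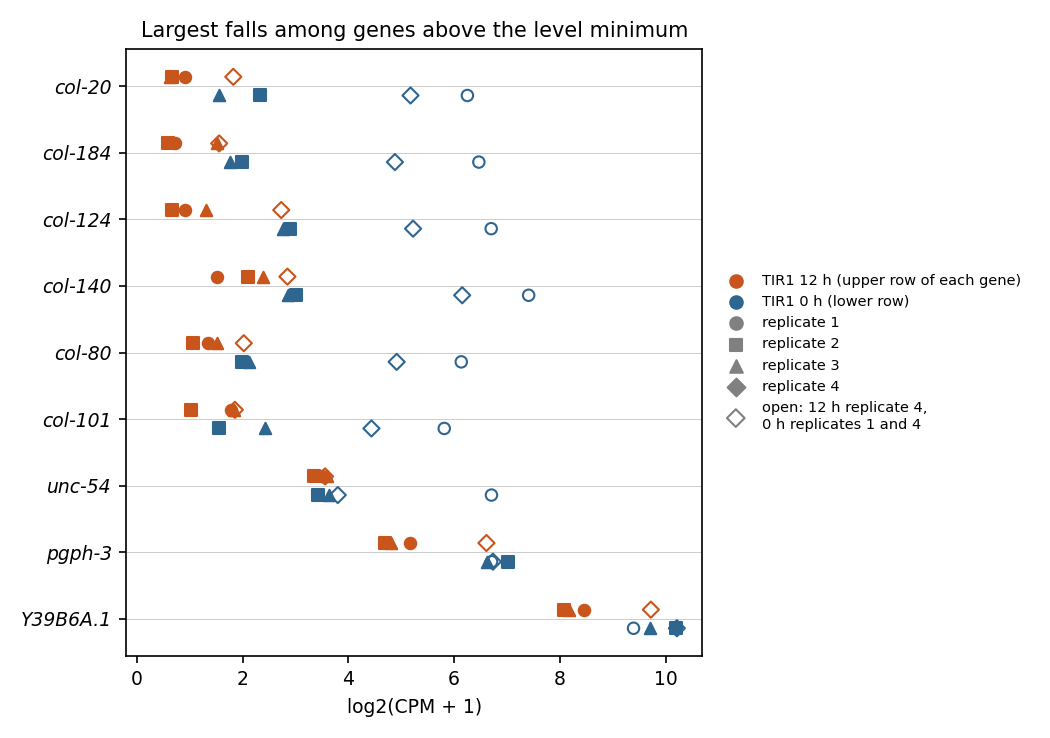
CPM of the 9 falls that averaged at least 10 CPM and had the same direction in all 4 same-numbered comparisons, on a log2(CPM + 1) axis in each TIR1 library, 12 h in orange above 0 h in blue for each gene, with a marker shape per replicate and open markers for 12 h replicate 4 and 0 h replicates 1 and 4. For the 6 collagens only the open 0 h points lie far above the 12 h points, unc-54 stands on 0 h replicate 1 alone (103 CPM), and in pgph-3 and Y39B6A.1 the 3 filled 12 h points lie below every 0 h point.

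Single libraries were left out in turn. This does not reach calls that rest on a pair of libraries together, such as the collagen falls on 0 h replicates 1 and 4, none of which was called with both of these and the library labelled TIR1 12 h replicate 4 left out. Of the 49 rises named from the largest changes and the lists, 26 kept their call whichever of the 8 libraries was left out, among them fmo-2, drd-50, cth-1, gst-5, clec-210, got-2.2, gba-2, ugt-53, gst-4, dhs-2, gst-10, cyp-13B1, pgp-1, acox-3 and clec-50. Without 0 h replicate 1 the rises of cyp-35A1, nhr-11, ugt-52, dhs-20, acdh-2, cbs-1, lipl-5, cdr-1, sams-4 and his-24 were lost, at log2 fold changes of 1.04 to 3.92 and FDR of 0.0571 to 0.1. Without 0 h replicate 2 those of cyp-35A1, gst-24, nhr-11, gst-19, ugt-52, cpt-3, acdh-2, cbs-1, asns-2, lipl-5, irg-4, sams-4, cpt-4, cest-7, nhr-58 and slc-17.6 were lost, at 1.00 to 3.87 and FDR of 0.0577 to 0.184. Without 0 h replicate 3 the lost rises were acdh-2, asns-2, lipl-5, cdr-1, cest-7, nhr-58, ctl-1, cest-12 and slc-17.6 (0.87 to 1.97, FDR 0.0401 to 0.0983), some by the fold alone. Without 0 h replicate 4 they were cyp-35A1, gst-24, gst-19, ugt-52, dhs-20, cbs-1, asns-2, irg-4, cdr-1, cest-7, nhr-58, ctl-1 and cdf-2 (0.91 to 4.33, FDR 0.0403 to 0.169).

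Without 12 h replicate 1 the rises of nhr-11, ugt-52, dhs-20, acdh-2, cbs-1, asns-2, lipl-5, cpt-4, cest-7, skn-1, nhr-58, ctl-1, cest-12 and slc-17.6 were lost (0.72 to 2.86, FDR 0.0279 to 0.243). Without 12 h replicate 2 those of cyp-35A1, gst-24, nhr-11, gst-19, ugt-52, acdh-2, cbs-1, lipl-5, irg-4, cdr-1, sams-4, cest-7, ctl-1, cdf-2 and slc-17.6 were lost (0.80 to 3.63, FDR 0.036 to 0.389). Without 12 h replicate 3 those of cyp-35A1, nhr-11, ugt-52, dhs-20, cbs-1, lipl-5, irg-4, cdr-1, sams-4, cest-7, his-24, nhr-58 and cdf-2 were lost (0.96 to 3.43, FDR 0.0333 to 0.2). Of the 13 named falls, col-80, col-140, col-124, col-184 and col-20 kept their call whichever single library was left out. Y39B6A.1, pgph-3, unc-54, col-19, nhr-99 and clec-5 lost theirs without any 1 of 12 h replicates 1 to 3, at -3.13 to -0.75 and FDR of 0.0558 to 0.181, and clec-5, unc-54, col-19, col-101 and unc-15 without 0 h replicate 1, at -3.32 to -0.13 and FDR of 0.0592 to 0.845. Without 0 h replicate 2, Y39B6A.1, nhr-99 and clec-5 were lost (-1.09 to -0.92, FDR 0.0569 to 0.136), without 0 h replicate 4 Y39B6A.1 and clec-5 (-1.03, FDR 0.0558 to 0.0776), and without 0 h replicate 3 clec-5 (-1.03, FDR 0.07). Leaving out the library labelled TIR1 12 h replicate 4 lost none of these 49 rises and 13 falls.

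The same 12 h on auxin in Pol I-AID animals, whose libraries are separate from those of TIR1, gave calls in many of the same genes. Of the 143 TIR1 rises, 97 were also called higher in Pol I-AID, making up 67.8% of the 143 and 24.6% of the 394 Pol I-AID rises (5.71% of genes tested). Of the 35 falls, 8 were called lower in Pol I-AID, making up 22.9% of the 35 and 4.79% of the 167. In the fit with 12 h replicates 1 to 3, 136 rises were shared (55.7% of 244 and 34.5% of 394) and 36 falls (31.6% of 114 and 21.6% of 167). Of the 242 rises and 113 falls of that fit that were also tested with all libraries, 235 rises (97.1%) had a Pol I-AID change above 0, against 47.9% of the other genes, and 97 falls (85.8%) had one below 0, against 52.1%.

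Side by side, the log2 fold change was 9.23 in TIR1 without that library and 9.76 in Pol I-AID for fmo-2, 4.65 and 4.88 for drd-50, 4.31 and 3.35 for cth-1, and 2.41 and 2.70 for gst-4. The collagens had a median of -0.92 in Pol I-AID, against which the TIR1 median of -3.27 rests on 0 h replicates 1 and 4. Of the detoxification families, Pol I-AID had 39 of 167 members called higher and 2 lower, where 5.71% and 2.42% of all genes were.

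The test of the difference between the strains called 143 genes (2.07% of 6903), of which 28 had the higher change in TIR1 (0.406%) and 115 the lower (1.67%). Among them were 4 of the 143 TIR1 rises and 0 of the 35 falls, to be read beside the 2.07% of all genes. A difference that was not called does not show that the strains changed equally. The 4 rises are named here after their values were seen. cyp-13B1 changed by 3.52 in TIR1 and 0.10 in Pol I-AID, a difference of 3.43 ± 0.79 (SE, edgeR FDR 0.0153), and 3.76 ± 0.70 (FDR 0.00233) without the library labelled TIR1 12 h replicate 4. cyp-34A9 had 89.9, 106, 116 and 39.6 CPM at 12 h, against 30.2, 27.5, 38.3 and 18.6 CPM at 0 h in TIR1, and changed by 1.63 there and 0.49 in Pol I-AID, a difference of 1.14 ± 0.32 (SE, edgeR FDR 0.0481), and 1.38 ± 0.23 (FDR 8.12e-04) without the library labelled TIR1 12 h replicate 4. F35D11.4 rose more in Pol I-AID (6.24) than in TIR1 (1.53), with a difference of -4.71 ± 0.58 (SE, edgeR FDR 3.17e-05), and -4.47 ± 0.56 (FDR 4.37e-05) without the library labelled TIR1 12 h replicate 4. W06H8.2 had 8, 2, 11 and 16 counts at TIR1 12 h and 0 counts in every 0 h library. Its 12 h level without the library labelled replicate 4 was 7.53 times a floor of 3 counts over the 0 h group, which is not a lower bound. The edgeR difference between the strains had FDR 0.0289, or 0.044 without that library.

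Without the library labelled TIR1 12 h replicate 4 the strain difference was called for 156 genes (2.2% of 7105, with 0.464% higher in TIR1 and 1.73% lower), among them 18 of the 244 TIR1 rises and 14 of the 114 falls. got-2.2 then rose more in TIR1, by 1.63 ± 0.19 (SE, edgeR FDR 2.88e-05), and so did the lipase lipl-2, by 1.43 ± 0.25 (SE, edgeR FDR 0.00106). With all libraries these differences were 1.28 ± 0.46 (SE, edgeR FDR 0.176) and 1.18 ± 0.34 (SE, edgeR FDR 0.0551).

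A pair of aminoacyl-tRNA synthetases, which load amino acids onto tRNAs, differed between the strains in both fits. iars-1, for isoleucine, had 128, 74.6, 78.6 and 184.5 CPM in 12 h replicates 1 to 4, against 256, 195, 175 and 186 CPM in 0 h replicates 1 to 4 in TIR1. 12 h replicates 1 to 3 were below every 0 h library. Its change was -0.80 ± 0.30 (SE, edgeR FDR 0.164) with all libraries and -1.12 ± 0.31 (SE, edgeR FDR 0.0219) without the library labelled TIR1 12 h replicate 4, while in Pol I-AID it rose by 1.82 ± 0.31 (SE, edgeR FDR 1.29e-04). The difference was -2.63 ± 0.43 (SE, edgeR FDR 7.67e-04), and -2.94 ± 0.43 (FDR 2.54e-04) without the library labelled TIR1 12 h replicate 4. pars-1, for proline and named after its values were seen, had 34.96, 10.2, 13.01 and 6.68 CPM at 12 h, against 10.8, 5.85, 5.31 and 8.205 CPM at 0 h, and changed by 1.06 ± 0.40 (SE, edgeR FDR 0.152) in TIR1 (or 1.32 ± 0.38 (SE, edgeR FDR 0.028) without the library labelled TIR1 12 h replicate 4) and by 3.55 ± 0.42 (SE, edgeR FDR 9.57e-07) in Pol I-AID, with a difference of -2.48 ± 0.55 (SE, edgeR FDR 0.0109), and -2.23 ± 0.53 (FDR 0.0155) without the library labelled TIR1 12 h replicate 4. Of the 30 synthetase genes tested, 0 were called in TIR1 with all libraries. In the fit without the library labelled replicate 4, 1 rose (pars-1) and 1 fell (iars-1), 3.33% each, against 3.43% and 1.6% of all genes. In Pol I-AID 9 rose, where 5.71% of all genes did.

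Of 10 cathepsins tested, 3 had a higher change in TIR1 than in Pol I-AID with all libraries, and 0 had a lower one. Over all genes tested 0.406% had a higher change and 1.67% a lower one. The 3 cathepsins are named after their values were seen. cpr-1 changed by -0.44 in TIR1 and -1.71 in Pol I-AID, a difference of 1.27 ± 0.22 (SE, edgeR FDR 0.00145) with all libraries and 1.06 ± 0.19 (SE, edgeR FDR 0.00146) without the library labelled TIR1 12 h replicate 4, cpr-9 by -0.06 and -1.24, a difference of 1.18 ± 0.15 (SE, edgeR FDR 3.17e-05) with all libraries and 1.15 ± 0.15 (SE, edgeR FDR 4.37e-05) without the library labelled TIR1 12 h replicate 4, and cpr-4 by -0.84 and -1.95, a difference of 1.11 ± 0.26 (SE, edgeR FDR 0.0161) with all libraries and 0.75 ± 0.17 (SE, edgeR FDR 0.0104) without the library labelled TIR1 12 h replicate 4. The F-box gene fbxa-74 had a difference of -1.33 ± 0.32 (SE, edgeR FDR 0.0172) with all libraries and -1.46 ± 0.32 (SE, edgeR FDR 0.00977) without the library labelled TIR1 12 h replicate 4.

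**Figure D5:**
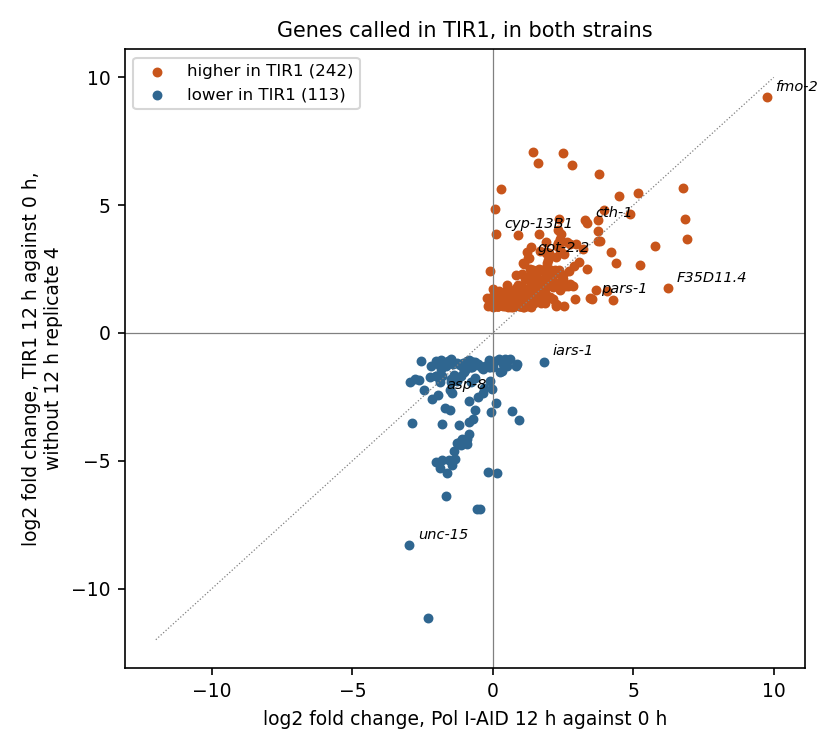
Log2 fold change at 12 h against 0 h in TIR1, without the library labelled replicate 4 (vertical axis), against that in Pol I-AID (horizontal axis), one point for each of the 355 genes called in TIR1 in that fit and tested with all libraries, 242 higher in orange and 113 lower in blue; the dotted line marks equal change. Most orange points lie to the right of 0 and most blue points to the left, while iars-1 was lower in TIR1 and higher in Pol I-AID.

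At 24 h on auxin in TIR1 animals, 142 of the 143 rises had a mean CPM above their 0 h mean, and 78 were at least as high as the mean of 12 h replicates 1 to 3. The rises were called against these same 0 h libraries, which favours a high count beforehand. The share over all genes tested was not counted, so these counts are a description. cth-1 averaged 332 ± 138 CPM at 24 h, got-2.2 97.0 ± 12.59 CPM, skn-1 95.8 ± 22.4 CPM and asns-2 663 ± 217 CPM (SD, n = 4).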

How the data were processed

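RNA was measured in dissected intestines by SMART-Seq sequencing in 24 libraries, of which the 8 TIR1 libraries at 12 h and 0 h are described, with the other groups used to estimate the spread and for the comparison with Pol I-AID. The authors trimmed adaptors with Trimmomatic, aligned the reads with splicing to ce10 in QuasR, used reads with a single alignment and counted those on the sense strand of annotated exons. The authors deposited raw counts for each gene, without scaling, beside the exon length. Of the values from 1 to 10, 70.1% to 82.4% per library were even, a pattern that counting of both mates of read pairs gives. Counts then overstate the number of molecules. Floors are therefore too low and intervals too narrow even for counting error, and neither covers the spread between libraries. Library totals were 3.18 to 26.2 M (1000000 counts) in the 8 libraries. A gene name table matched 19182 of 20392 identifiers (94.1%). No coordinates or sequences are given, since no genome of the ce10 build was used.

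Counts were tested with edgeR 4.0.16 (R 4.3.3) by the quasi-likelihood F-test, with TMM scaling and filterByExpr (6903 genes), in 1 model of 6 group means over 24 libraries with a common dispersion of 0.111 and 18 residual degrees of freedom. A call is an FDR (Benjamini-Hochberg over all genes tested) under 0.05 with at least a 2-fold change. CPM used TMM-scaled totals, and SE is the log2 fold change divided by the square root of F. Sums of marker genes and the vitellogenin share were compared by two-sided exact permutation tests. Tested on simulated counts for TIR1 12 h against 0 h (6910 genes, with 100 changed at each fold), the fit recovered 20% of 2-fold and 98% of 4-fold changes, with 4 false calls. Whether these shares hold for the measured libraries, some of which stood apart from their group, was not tested. Alternatives were DESeq2 1.42.0, other scalings, filters and groups in the fit, a replicate block, and leaving out libraries; leaving out 0 h replicates 1 and 4, alone or with the library labelled TIR1 12 h replicate 4, and the fit of 2 TIR1 groups with 3 libraries at 12 h, were chosen after seeing the data.

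Genes were named as the 12 largest rises and falls among called genes with a mean of at least 10 CPM and the same direction in all 4 same-numbered comparisons (9 falls qualified), as up to 4 called members with the largest change in each of 41 lists and 9 marker lists or else the most abundant member, and vit-1 to vit-6. Members and lists were chosen with earlier results of these data known. The labels call the replicates independent biological samples.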

Additional observations from a re-analysis of the deposited data

Results flagged for a closer look

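Libraries were compared with the others of their group by the gap of the highest or lowest of 4 values to its neighbour over the range, which exceeded 0.829 in 30 of 268 groups checked. Chance gives 5% for groups not chosen by their values, and several of these genes were chosen for a value that stands apart, so the share is not to be read against it. In 11 of these the value standing apart was the library labelled TIR1 12 h replicate 4, namely got-2.2 (0.866), clec-49 (0.84), the coelomocyte marker sum (0.84) and its 1 tested gene cup-4 (0.857), where it was lower than the other 12 h libraries, and pgph-3 (0.859), Y39B6A.1 (0.863), lys-6 (0.838), asp-8 (0.842), pept-1 (0.86), fbxa-61 (0.84) and col-20 (0.83), where it was higher. TIR1 0 h replicate 1 stood apart in the muscle marker sum (0.969), unc-15 (0.977), unc-54 (0.966), act-4 (0.957), let-2 (0.912), irg-4 (0.87) and fbxa-74 (0.855), where it was the highest, and in asp-8 (0.867), where it was the lowest. In 0 h replicate 3 the total count was the lowest (0.839), as was asp-3 (0.922), and phat-3 (0.903) and fmo-2 (0.956) were the highest. In 0 h replicate 4 spp-2 was the lowest (0.946), and clec-49 (0.948) and gba-4 (0.832) were the highest. At 12 h, replicate 2 was the highest in gst-24 (0.865) and the lowest in col-101 (0.874), and replicate 3 the highest in the neuron marker sum (0.871). argk-1 at 0 h (1) had counts in replicate 2 alone.

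The change over 12 h differed between TIR1 and Pol I-AID by the edgeR test of the difference in 11 genes described here. TIR1 minus Pol I-AID was 3.43 for cyp-13B1, 5.69 for W06H8.2, 1.14 for cyp-34A9, 1.27 for cpr-1, 1.18 for cpr-9 and 1.11 for cpr-4 on the log2 scale. It was -4.71 for F35D11.4, -2.63 for iars-1, -2.48 for pars-1, -1.33 for fbxa-74 and -1.26 for crh-1.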

How the results depend on the processing

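The directions of the named changes seldom turned, and their calls were lost more often. The alternatives refit the same libraries from which these genes were called, so few turns could be found and the counts are a description. Over 62 called named genes, 1518 values under the alternatives kept direction and call in 1141 cases, lost the call in 376 and turned direction in 1, which is unc-54 without TIR1 0 h replicates 1 and 4 (log2 fold change 0.014, FDR 0.997). Without those libraries act-4 turned as well (0.21, FDR 0.98). TIR1 rises and falls numbered 63 and 18 among genes with at least 10 counts in each of the 8 libraries, 247 and 74 by FDR alone, 0 and 0 with only the 2 TIR1 groups, 90 and 0 without 0 h replicates 1 and 4, and 225 and 66 without these and the library labelled TIR1 12 h replicate 4. Falls were 89 with no count filter and 109 with the 2 TIR1 groups and 3 libraries at 12 h. Leaving out 1 replicate number or library gave 34 to 244 rises and 0 to 114 falls; without replicate 1 in every group edgeR called 73 and 0 (547 and 320 at an unadjusted p under 0.05, 128 and 12 by DESeq2). DESeq2 called 154 and 44 with all libraries. In Pol I-AID, rises and falls were 6.06% and 3.25% of the genes tested with the 10-count filter (5.71% and 2.42% in the report), falls were 1.64% with no filter and 6.35% by FDR alone, and leaving out 1 at a time gave 4.41% to 5.75% and 1.80% to 2.45%. Genes with a strain difference were 289 with no filter, 53 without 0 h replicates 1 and 4, 94 without these and the library labelled TIR1 12 h replicate 4, and 37 to 156 leaving out 1 at a time. The vitellogenin difference was 2.61 to 5.58 points leaving out 1 at a time, highest and past the exact test without the library labelled TIR1 12 h replicate 4. The causes were not tested.

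The shared replicate numbers gave no clear pairing (correlation of same-numbered deviations -0.051 to 0.104, 2 of 4 highest with their own number), though 4 correlations cannot show that there was none. Replicate 1 was strain DCW143 at both times and replicates 2 to 4 were DCW448, so the number also carries the strain. The fit without replicate 1 in every group, which left DCW448 as the only TIR1 strain, gave the 73 rises and 0 falls stated above. With the replicate number as a block, 128 genes rose, 31 fell and 8 of the 62 named calls were lost. In simulated counts 20% of 2-fold changes were recovered, so most were missed there. A call also needs an estimated change of at least 2-fold, which a true 2-fold change often falls short of. What part 4 libraries a group, or the 3.18 M counts of 0 h replicate 3, had in this was not tested.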

Other observations

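Some rises were close to off before auxin. Of the genes called at 12 h against 0 h in TIR1, 5 had no count in any 0 h library and 4 had 1 to 3 counts there. The following were named after their values were seen. argk-1, an arginine kinase, had 92, 54, 88 and 0 counts in 12 h replicates 1 to 4, against 0, 3, 0 and 0 counts in 0 h replicates 1 to 4. The ratio of its pooled level without the library labelled TIR1 12 h replicate 4 was 83.9 (95% exact counting interval 28.3 to 409.5). That interval is too narrow, since counts overstate the number of molecules and the libraries were pooled. The gene was also called higher in Pol I-AID (log2 fold change 3.77, edgeR FDR 0.0095). E02C12.10 had 6, 24, 30 and 2 counts at 12 h, against 0 in each 0 h library. Without the library labelled TIR1 12 h replicate 4 this is 21.5 times a floor of 3 counts over the 0 h group, which is not a lower bound. F13B12.4 had 16, 23, 20 and 0 counts at 12 h, against 0 in each 0 h library, which is 21.1 times the same floor. Its change in Pol I-AID was 1.43 ± 0.89 (SE, edgeR FDR 0.368). Each of these calls was lost in edgeR when replicate 2 or 3 was left out of every group, and those of argk-1 and F13B12.4 also without replicate 1.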
